A study of Mus musculus with 4 samples.

Results

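Radial spokes are T-shaped protein complexes of the axoneme, the microtubule core of motile cilia and sperm flagella. Each spoke stands on an outer doublet microtubule and reaches with its head towards the central pair of microtubules, and it carries mechanical and chemical signals that coordinate the dynein motors along the cilium. Primary cilia, the single non-motile signalling cilia of most cells including retinal progenitors, lack a central pair and are not known to carry radial spokes.

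Of the 10 genes in the set, 6 were listed in the expression table of 18471 genes and 4 were not. The set holds the spoke heads (Rsph1, Rsph4a, Rsph6a, Rsph9, Rsph10b), the stalk protein genes Rsph3a and Rsph3b, and the spoke-associated proteins Rsph14, Dnajb13 and Nme5, and its members were found by matching gene symbols. Rsph1, Rsph3a, Rsph3b, Rsph9, Rsph10b and Nme5 were listed. Rsph4a, the head subunit of motile cilia, its sperm counterpart Rsph6a, the armadillo-repeat protein Rsph14 and the co-chaperone Dnajb13 were not listed and were not analysed here. All 6 listed members passed the low-count filter, which left 17300 tested genes. The members were chosen by function with earlier results of these data known.

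RNA was sequenced from retinas of mouse embryos at embryonic day 19. The 2 groups were wild-type and Foxn3KO, the latter Foxn3-/- embryos of the line C57BL/6NJ-Foxn3em1(IMPC)Bay/Mmnc, which lacks exon 3 of Foxn3, a gene for a forkhead transcription factor. Each group had 2 libraries, made from individually genotyped embryos per the labels. The labels do not name litter or sex, nor say that the 2 libraries of a group came from different embryos. The p-values set the genotype difference against the spread between these libraries, which the test estimates partly by pooling over genes. The study concerns a transcriptional network around Foxn3 that regulates primary cilia of the developing retina, and the comparison asks how retinal transcripts differ between the genotypes.

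Total counts lay between 22543531 and 29360129 per library. Replicates differed by more than counting noise, for which the chi-square per gene averages 1: it was 10.1 in wild-type and 1.89 in Foxn3KO. Foxn3 itself had 2421 and 2712 counts in the wild-type libraries and 4181 and 3219 in the libraries labelled Foxn3KO, and its log2 fold change was 0.54 (Benjamini-Hochberg adjusted p = 7.80e-08 by edgeR's quasi-likelihood test). Counts per gene do not resolve exon 3 and so do not check the deletion, and every direction below rests on the labels. Wild-type replicate 1 stood apart in sex-linked transcripts, with 83073 Xist counts against 9 to 19 in the other 3 libraries and 0 counts over 3 Y-linked genes (Ddx3y, Eif2s3y and Kdm5d) against 4959 to 6412; values without it are given beside the members. All 12 neural retina markers were listed, and their summed level was 3820 to 4040 CPM in the 4 libraries (CPM: counts scaled to library size with TMM factors). Of the 12, Six3, Elavl3 and Nrl were called higher by edgeR at an adjusted p under 0.05 (log2 fold change 0.18, 0.22 and 0.28). Isl1 was called lower (-0.23). Of all tested genes 12.3% were called higher and 9.66% lower.

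Rsph3a and Rsph3b are near-identical gene copies, and their sequences show how far reads can tell them apart. Both lie on chromosome 17. In the GENCODE M21 transcripts, 1548 coding bases of Rsph3a aligned with Rsph3b at 99.2% identity, with 13 substitutions in all and an identical run of 939 bases. The stretch of 100 coding bases with the most substitutions holds 5 of them, marked in capitals; it runs from coding base 208 to 307 of Rsph3a and from 262 to 361 of Rsph3b, counted from the start codon, 5′ to 3′.
Rsph3a: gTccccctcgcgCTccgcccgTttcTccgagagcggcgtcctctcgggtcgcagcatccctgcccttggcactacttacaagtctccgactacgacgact
Rsph3b: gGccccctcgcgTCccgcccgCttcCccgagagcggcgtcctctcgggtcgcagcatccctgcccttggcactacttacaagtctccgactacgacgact

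Of all windows of 100 bases in the annotated transcripts, 44.7% of those of Rsph3a and 51.3% of those of Rsph3b also occurred in a transcript of another gene. For Rsph3a that other gene was Rsph3b alone. Reads of up to 100 bases from such windows cannot be assigned to 1 gene by their own sequence. How the authors' counting treated them is not given in the sources used here. The split of counts between the 2 genes and the level of each are therefore uncertain. Rsph10b, on chromosome 5, shared 7.3% of its windows with Gm42421, and 13.2% of its exonic bases overlapped exons of Gm42421 and Pms2 on the same strand. Exons on the opposite strand overlapped 9.89% of the exonic bases of Rsph3a, 2.89% of Rsph3b and 2.52% of Rsph10b. Whether the counting used the strand is not given in the sources used here. Rsph1 and Rsph9, both on chromosome 17, and Nme5, on chromosome 18, shared no window with another gene and no exonic base with a neighbour.

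The 6 listed members were all higher in the libraries labelled Foxn3KO, from 1.36-fold for Rsph3a to 10.3-fold for Nme5. All 6 had an adjusted p under 0.05 (edgeR quasi-likelihood, Benjamini-Hochberg over 17300 genes), where 21.9% of all tested genes were called, 12.3% higher and 9.66% lower. Of the 6, 4 (Nme5, Rsph1, Rsph9 and Rsph10b) were called with a log2 fold change of at least 1, which held for 2.86% of tested genes. For all 6, both Foxn3KO libraries lay above both wild-type libraries, which held for 29.9% of tested genes. The median log2 fold change was 1.12 over the 6 members and -0.0047 over all tested genes, whose 5th and 95th percentiles were -0.52 and 0.77.

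**Figure D1:**
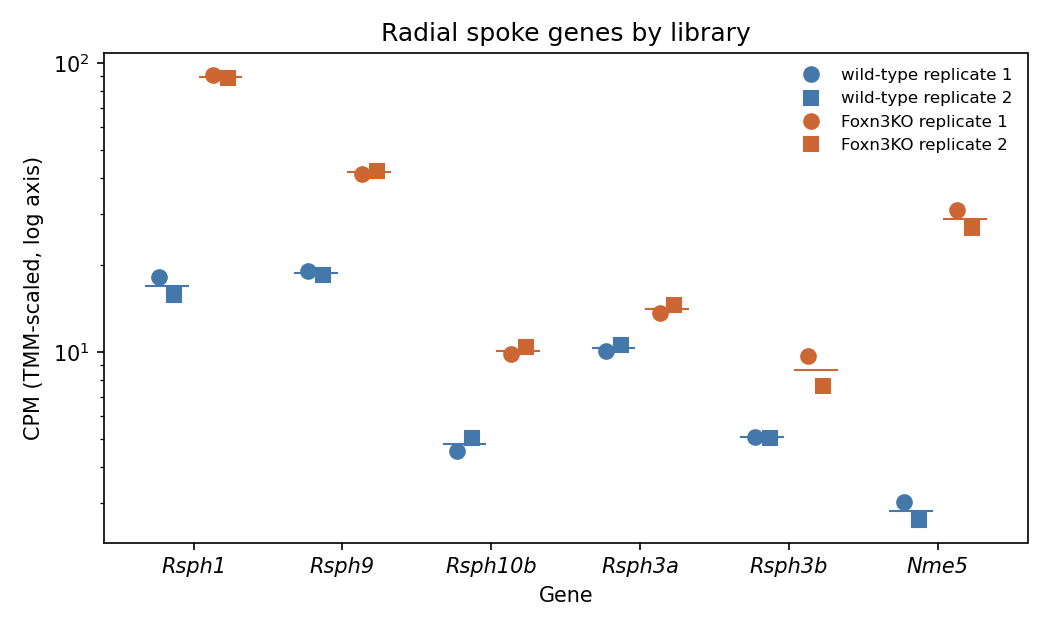
Level of each listed radial spoke gene in each library, in TMM-scaled CPM on a log axis; circles are replicate 1, squares replicate 2, and short lines group means (n = 2). Both Foxn3KO points lie above both wild-type points for every gene, with the widest gap for Nme5 and the narrowest for Rsph3a.

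Among the spoke head genes, Rsph1 had the largest rise. Rsph1 encodes a head protein built of MORN repeats, and mutations of its human counterpart cause primary ciliary dyskinesia, a disease of motile cilia. It had 449 and 428 counts in the wild-type libraries and 2643 and 1989 in the Foxn3KO libraries. In CPM this was 18.1 and 15.8 against 90.8 and 88.8, so the groups were far apart relative to the gap within either. The log2 fold change was 2.41 (SE 0.0687, edgeR adjusted p = 1.74e-14), a 5.31-fold rise with a 95% interval of 4.8 to 5.87. Only 0.844% of tested genes had a larger log2 fold change.

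Rsph9, another head protein whose human counterpart is a ciliary dyskinesia gene, started from a like level and rose less. Its CPM values were 19.1 and 18.5 in the wild-type libraries and 41.4 and 42.4 in the Foxn3KO libraries. Replicates differed little in either group, and the groups did not overlap. The log2 fold change was 1.16 (SE 0.07, edgeR adjusted p = 7.05e-10), a 2.23-fold rise with a 95% interval of 2.01 to 2.47. The intervals of the log2 fold changes of Rsph1 (2.26 to 2.55) and Rsph9 (1.01 to 1.31) did not overlap, although both proteins belong to the same spoke head.

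Rsph10b, a further MORN-repeat protein of the head, had the smallest rise of the 3 listed head genes. It had 112 and 137 counts in the wild-type libraries and 286 and 234 in the Foxn3KO libraries, or 4.52 and 5.04 against 9.82 and 10.4 CPM. Its log2 fold change was 1.08 (SE 0.136, edgeR adjusted p = 1.22e-05), a 2.11-fold rise with a 95% interval of 1.73 to 2.58. That interval overlapped the interval of Rsph9. Part of its exonic sequence is shared with its neighbours, as given above.

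The stalk genes had the smallest rises. Rsph3 protein sits in the spoke stalk, where it can bind protein kinase A as an anchoring protein. Rsph3a had 10.04 and 10.6 CPM in the wild-type libraries and 13.6 and 14.5 in the Foxn3KO libraries. All 4 values lay close together, yet the groups did not overlap; the log2 fold change was 0.44 (SE 0.105, edgeR adjusted p = 0.00556). This call depended on 1 library: without Foxn3KO replicate 2 the log2 fold change was 0.39 with an edgeR adjusted p of 0.0606.

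Rsph3b had 5.08 and 5.04 CPM in the wild-type libraries and 9.65 and 7.64 in the Foxn3KO libraries. The wild-type values nearly coincided, while the Foxn3KO replicates stood well apart. The log2 fold change was 0.78 (SE 0.149, edgeR adjusted p = 9.45e-04), and it was 0.59 without Foxn3KO replicate 1 and 0.93 without Foxn3KO replicate 2.

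Because reads can be split between the copies, their sum was also tested as 1 gene. The log2 fold change of the sum was 0.56 (SE 0.0846, 95% interval 0.38 to 0.74, edgeR adjusted p = 9.73e-05), a 1.47-fold rise. Rsph3b made up 33.6% (exact binomial 95% interval 28.8 to 38.6%) and 32.2% (27.7 to 36.8%) of the summed counts in the wild-type libraries. In the Foxn3KO libraries it made up 41.6% (37.8 to 45.4%) and 34.5% (30.3 to 38.8%). These intervals cover counting error only. The share in Foxn3KO replicate 1 was above the other 3, though its interval overlapped those of wild-type replicate 1 and Foxn3KO replicate 2. The share in Foxn3KO replicate 2 lay within the intervals of both wild-type libraries. The larger fold change of Rsph3b than of Rsph3a is therefore not a difference seen alike in both Foxn3KO libraries, and the intervals of their log2 fold changes (0.47 to 1.10 and 0.22 to 0.66) overlapped.

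Nme5 had the largest rise of the set. It encodes a nucleoside diphosphate kinase-like protein associated with the spoke neck, and its loss in mammals disturbs motile cilia. Nme5 had 75 and 71 counts in the wild-type libraries and 899 and 603 in the Foxn3KO libraries. In CPM this was 3.02 and 2.61 against 30.9 and 26.9, with both Foxn3KO values far above both wild-type values. The log2 fold change was 3.36 (SE 0.119, edgeR adjusted p = 3.21e-13), 10.3-fold with a 95% interval of 8.63 to 12.2. By log2 fold change it ranked 84 among all tested genes, with 0.48% of them above it.

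**Figure D2:**
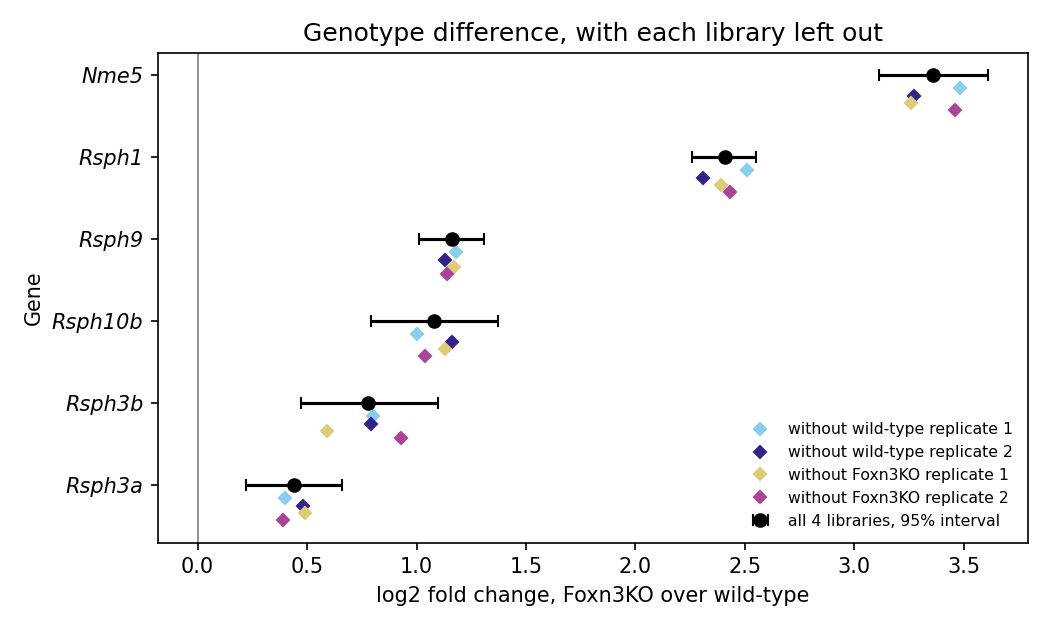
Log2 fold change of each listed member, Foxn3KO over wild-type, from all 4 libraries (black, with 95% interval) and with each library left out in turn (coloured diamonds, no interval drawn). Nme5 and Rsph1 stand clear of the other members, whose intervals overlap with the next in order, and no diamond reaches 0.

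By size of the log2 fold change the members thus fell in the order Nme5, Rsph1, Rsph9, Rsph10b, Rsph3b and Rsph3a. The 95% intervals of Nme5, Rsph1 and Rsph9 were separate, and from Rsph9 downwards each overlapped the next. Without wild-type replicate 1, the library with the differing sex-linked transcripts, the log2 fold changes were 3.48 for Nme5, 2.51 for Rsph1, 1.18 for Rsph9, 1.00 for Rsph10b, 0.80 for Rsph3b and 0.40 for Rsph3a, and all 6 members were called. In the authors' deposited table all 6 also had an adjusted p under 0.05, where 10.1% of genes with an adjusted p were higher at that threshold.

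Levels were compared between members per gene length, with the FPKM values as the authors deposited them (fragments scaled by gene length and sequencing depth). In wild-type retina Rsph1 (12.3 ± 1.19 FPKM, SD, n = 2) and Rsph9 (11.7 ± 0.248) led, and their ranges overlapped. Rsph3a followed at 3.42 ± 0.144, then Nme5 at 2.43 ± 0.248, Rsph3b at 1.62 ± 0.00667 and Rsph10b at 1.54 ± 0.121. The last pair also overlapped, and the remaining neighbours in this order did not. The places of Rsph3a and Rsph3b, here and in the Foxn3KO libraries, are uncertain, because how reads from their shared windows were counted is not known. Between 24.3% and 27.5% of all listed genes had a higher FPKM than Rsph1 or Rsph9 in the wild-type libraries, and between 54.6% and 67.3% had a higher one than the other 4 members. Rsph1 and Rsph9 had 428 to 502 counts in the wild-type libraries, while the head gene Rsph10b had 112 and 137 and the lowest mean FPKM of the set.

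In the Foxn3KO libraries the order changed. Rsph1 led alone at 65.3 ± 0.997 FPKM (SD, n = 2), and 3.18% and 3.25% of listed genes had a higher FPKM. Rsph9 (26.1 ± 0.425) and Nme5 (24.97 ± 2.41) came next with overlapping ranges. Rsph3a was at 4.64 ± 0.222, Rsph10b at 3.26 ± 0.143 and Rsph3b at 2.77 ± 0.456, and none of these overlapped its neighbour in the order. In a bulk sample, more cells with a transcript and more RNA per cell cannot be told apart.

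**Figure D3:**
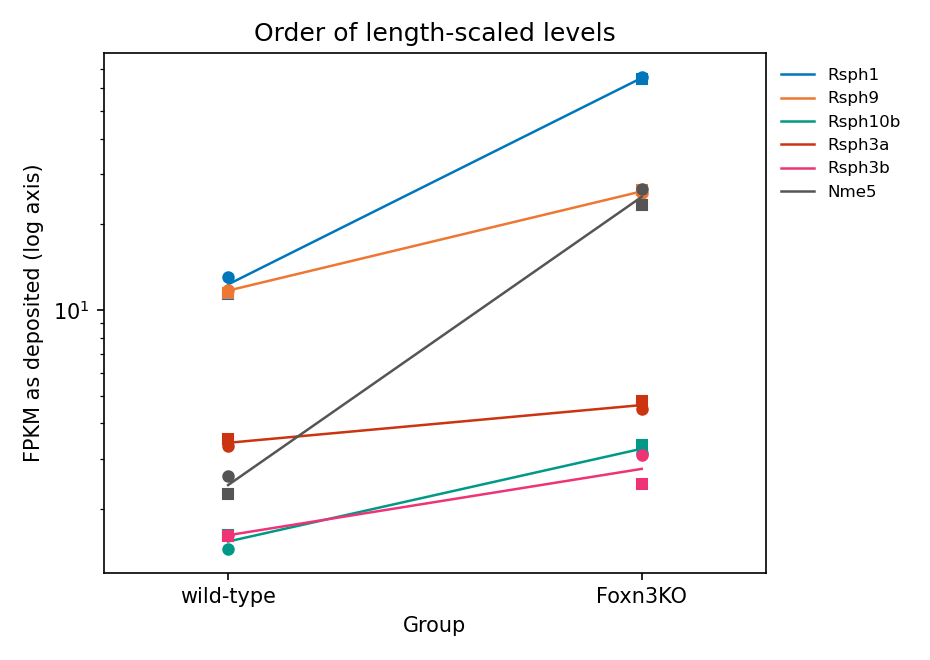
FPKM of each listed member as deposited, on a log axis, in the wild-type libraries (left) and the Foxn3KO libraries (right); circles are replicate 1, squares replicate 2, and lines join group means (n = 2). The lines of Nme5 and Rsph3a cross, as do those of Rsph3b and Rsph10b. Nme5 goes from the fourth level to that of Rsph9.

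Ratios of FPKM within a library show the same shift free of any scaling between libraries. The ratio of Rsph1 to Rsph9 was 1.11 and 0.996 in the wild-type libraries and 2.56 and 2.45 in the Foxn3KO libraries. The ratio of Nme5 to Rsph9 was 0.22 and 0.196 in wild-type and 1.03 and 0.882 in Foxn3KO. The spoke transcripts therefore did not rise by 1 common factor. Summed over the 6 members, FPKM was 33.98 and 31.96 in wild-type and 129 and 125 in Foxn3KO, and the share of Rsph1 in that sum went from 38.7% and 35.8% to 51.1% and 51.7%. The share of Rsph9 went the other way, from 34.9% and 35.98% to 19.96% and 21.1%.

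Other spoke and axoneme genes were set beside the members, in lists also chosen with earlier results of these data known. Beside the counts of each list below, 12.3% of all tested genes were called higher and 9.66% lower. Of 13 further spoke proteins 8 were listed and tested, and 7 of the 8 were called higher by edgeR and none lower, with a median log2 fold change of 2.39. Cfap206, a protein at the base of the spoke, had a log2 fold change of 4.11, from 3.99 and 4.71 CPM to 71.8 and 78.8 (edgeR adjusted p = 2.68e-16). Lrrc23, a head protein of the third spoke, rose by 3.06, from 10.2 and 9.16 CPM to 79.6 and 81.04 (edgeR adjusted p = 7.92e-16). Cyb5d1 was not called, with 22.6 and 19.5 CPM in wild-type and 23.97 and 20.9 in Foxn3KO (log2 fold change 0.10, edgeR adjusted p = 0.511), and its groups overlapped.

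The central pair apparatus, which the spoke heads contact, had 11 of 12 genes tested, all 11 called higher, with a median log2 fold change of 2.66. Cfap69 rose by 2.30 (edgeR adjusted p = 1.63e-15), Spef2 by 5.27 (edgeR adjusted p = 6.06e-14) and Spef1, which bundles the central microtubules, by 0.51 (edgeR adjusted p = 8.17e-07). The axonemal ruler, which sets where spokes attach along the doublet, and the nexin-dynein regulatory complex had 9 of 11 genes tested, all 9 called higher, with a median of 2.76. Both ruler genes rose: Ccdc40 had a log2 fold change of 3.11 (edgeR adjusted p = 1.88e-16) and Ccdc39 of 2.03 (edgeR adjusted p = 8.87e-15), while Fbxl13, the member of that list with the largest p, rose by 1.93 from 0.645 and 0.552 CPM (edgeR adjusted p = 3.70e-04). The median over the 6 spoke members, 1.12, was the lowest of these 4 axonemal lists, and the lists were not tested against each other.

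**Figure D4:**
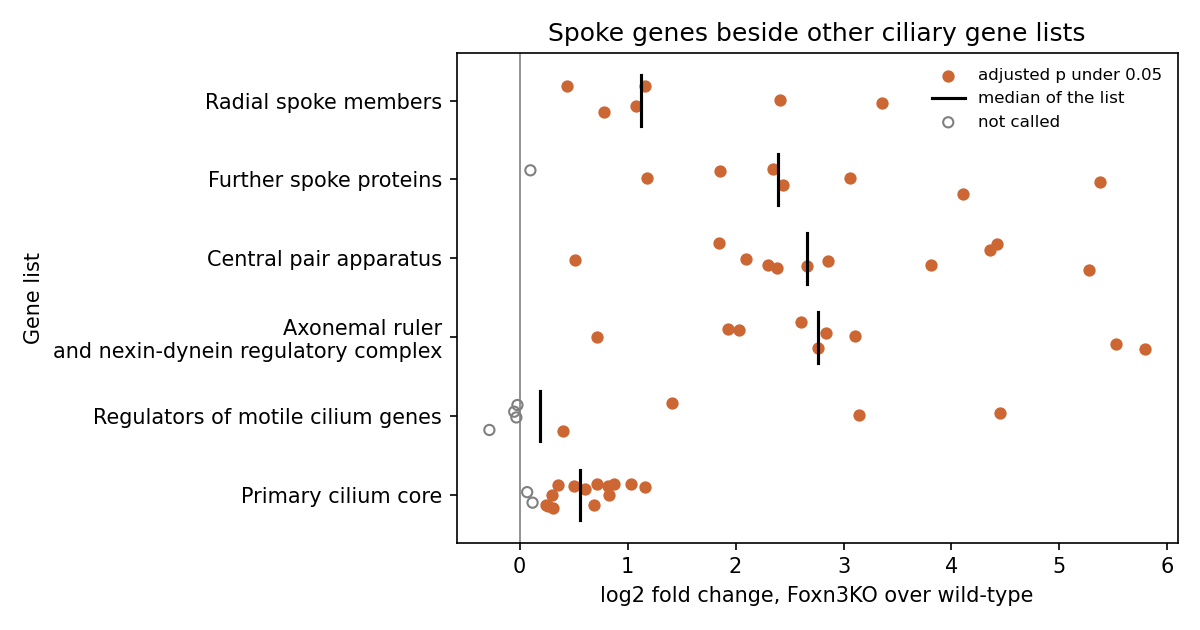
Log2 fold change of every tested gene in 6 lists, Foxn3KO over wild-type; filled points had an edgeR adjusted p under 0.05, open points did not, vertical bars are list medians, and vertical jitter is random. The spoke members lie between 0.44 and 3.36, with Rsph3a below the lowest gene of the central pair list (0.51) and of the ruler list (0.72), and Nme5 and Rsph1 above the highest of the primary cilium core (1.16).

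A list of genes that primary cilia use was set beside the members without a test between them. Of 16 intraflagellar transport, motor, BBSome and ciliary gate genes, all were tested and 14 were called higher and none lower, with a median log2 fold change of 0.55 and a highest value of 1.16. Ift122 rose by 1.16 and Ift57 by 1.03 (edgeR adjusted p = 6.29e-12 and 2.08e-09), and Ift20 was not called (0.07, edgeR adjusted p = 0.47). Of the 6 spoke members, Rsph9, Rsph10b, Rsph3b and Rsph3a had log2 fold changes within the range of this list, 0.07 to 1.16, with Rsph3a below its median, and Nme5 and Rsph1 lay above that range.

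Among 10 regulators of motile cilium genes, 8 were tested, 4 were called higher and none lower, with a median of 0.19. Foxj1, the forkhead factor that directs the motile cilium programme, had 7.7 and 8.32 CPM in wild-type and 177 and 175 in Foxn3KO, a log2 fold change of 4.45 (edgeR adjusted p = 1.60e-18). The X-box binding factors Rfx2 and Rfx3 rose by 1.41 and 0.40 (edgeR adjusted p = 1.18e-10 and 1.35e-05). Foxn4 was not called (-0.02, edgeR adjusted p = 0.776). Ccno was the remaining gene of this list called higher, with a log2 fold change of 3.14 (edgeR adjusted p = 6.87e-10). It had 1.61 and 0.994 CPM in wild-type and 11.7 and 11.1 in Foxn3KO. The multiciliated cell regulators Mcidas and Gmnc were not listed.

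The 5 tested genes outside these lists whose profile over the 4 libraries lay closest to the median profile of the members were Wdfy1, Tctn3, Cyp46a1, Rpgr and Kifc3. The measure was the Euclidean distance between log2 CPM values, each gene centred on its own mean, and it ran from 0.0266 for Wdfy1 to 0.0608 for Kifc3. Rpgr, whose human counterpart is mutated in a form of retinitis pigmentosa, had 62.9 and 63.9 CPM in wild-type and 141 and 138 in Foxn3KO. Tctn3, a transition zone protein, had 28.7 and 29.8 CPM against 61.7 and 65.5. The median profile was close to that of Rsph9 (distance 0.0777) and Rsph10b (0.0977) and far from that of Nme5 (2.21) and Rsph1 (1.29), so these 5 genes resemble the middle of the set only.

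Since the listed members all rose, though by differing factors, the bases before their start sites were searched for motifs of the factors named above. RefSeq promoter sequence (GRCm38.p6, a build other than mm39, the one in the submitters' processing notes) was matched by symbol for 3 of the 6 listed members, Rsph3a, Rsph3b and Rsph9. The Rsph3b window is not printed because all 250 of its bases are exonic in GENCODE M21. The windows of the other 2 members are the 250 bases before the start, on the strand of the gene, 5′ to 3′; capitals would mark a motif match and there is none.
Rsph9 (chr17:46144201-46144450, minus strand): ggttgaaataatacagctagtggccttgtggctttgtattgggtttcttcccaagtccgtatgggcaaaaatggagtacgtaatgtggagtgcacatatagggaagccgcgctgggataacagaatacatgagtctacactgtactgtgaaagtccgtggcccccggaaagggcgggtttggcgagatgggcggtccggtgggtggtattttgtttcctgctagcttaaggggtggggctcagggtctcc
Rsph3a (chr17:7945364-7945613, plus strand): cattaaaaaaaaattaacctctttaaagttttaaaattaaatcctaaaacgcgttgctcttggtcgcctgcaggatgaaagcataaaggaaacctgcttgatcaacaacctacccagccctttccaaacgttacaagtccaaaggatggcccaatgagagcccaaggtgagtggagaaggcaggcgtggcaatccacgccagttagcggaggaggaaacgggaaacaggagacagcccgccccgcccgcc

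The motifs were the forkhead site GTAAACA, the alternative forkhead site GACGC and an X-box written as GTNNCC followed after 0 to 3 bases by GGNAAC, on both strands. They occur in 3.17%, 22.6% and 1.92% of 32851 promoter windows of the same length. None was found in the windows of Rsph9, Rsph3a or Rsph3b. This says only that these letters are not in these windows. Nme5 and Rsph1, the members with the largest rises, and Rsph10b had no window to search.

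Markers of other cell types that bear motile cilia or that border the retina were measured beside the members. None of 10 airway and nasal markers was listed. Of 4 ependymal markers 2 were listed, Aqp4 and S100b, with a summed level of 1.95 to 3.15 CPM in wild-type and 1.68 to 2.14 in Foxn3KO; Rarres2 and Mia were not. The sum of 7 listed choroid plexus markers of 9 was 17.1 and 20.8 CPM in wild-type and 18.2 and 18.9 in Foxn3KO, with 2 called higher, 2 lower, and Kcnj13 and Prlr not listed. Of 11 male germ cell markers 2 were listed, at 3.39 to 4.09 CPM in wild-type and 5.31 to 5.7 in Foxn3KO, and neither was called; the sperm protamine genes Prm1 and Prm2 were not listed.

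The lens list differed between the genotypes and also strongly between the 2 wild-type libraries. All 6 listed lens markers of 7 were called higher, where 12.3% of all tested genes were. Their summed level was 4.11 and 56.5 CPM in the wild-type libraries and 194 and 191 in the Foxn3KO libraries. The summed level of the spoke members was 59.8 and 57.6 CPM in the wild-type libraries, and 196 and 191 in Foxn3KO. Pigment epithelium markers, 8 of 9 listed, summed to 87.6 and 115 CPM in wild-type and 72.8 and 73.9 in Foxn3KO, with 3 called lower and none higher. The part of either tissue in the genotype difference of the spoke genes was not tested.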

How the data were processed

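RNA sequencing of 4 retinal libraries was used, 2 per genotype, grouped by the sample labels. Libraries were made with a directional kit and adaptors with molecular identifiers, per the labels' protocols. The authors deposited 1 table for the series with whole-number read counts per gene and FPKM values per library. It also holds a mean signal per gene, log2 fold changes, p-values and adjusted p-values, all deposited by the authors. The submitters' processing notes name mm39 and DESeq2; the aligner, counter, annotation, use of strand and removal of duplicates are not given in the sources used here. The smallest sum of counts over the libraries was 16.

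Of 18471 genes (1 repeated identifier dropped), 17300 passed filterByExpr. With TMM scaling, genotype was the single term of a two-sided quasi-likelihood test (edgeR 4.0.16, its newer fit, under R 4.3.3), and p-values were Benjamini-Hochberg adjusted with a threshold of 0.05. Standard errors came from the fold change and F statistic. On simulated data for Foxn3KO against wild-type (17062 genes, 200 of them changed), 91% of genes changed by 1 on the log2 scale were called. Of those changed by 2, 99% were called. There were 20 false calls beside 91 and 99 true ones, a larger false share than the threshold of 0.05. Fewer genes were changed there than were called in the data. A limit of 3 counts was 0.103 to 0.134 CPM. Alternatives were RLE and total count scaling, no filter, at least 10 counts per library, DESeq2 1.42.0, limma-voom 3.58.1, the earlier edgeR fit, the replicate block and leaving out each library. Alignments used Biopython 1.88 and figures matplotlib 3.10.9.

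Named were all 10 members, Foxn3, Foxj1, Rfx2, Rfx3, the 2 genes with the smallest p and the 1 with the largest p of each other list, and the 5 genes nearest to the members' median profile. The remaining marker genes, Ccno, Mcidas, Gmnc and the sex-linked genes were named after their values were seen, and alternatives for these are not reported. Members and lists were chosen with earlier results of these data known.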

Additional observations from a re-analysis of the deposited data

How the results depend on the processing

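All 6 members kept their direction under each of the 12 alternatives run per member, and 73 of 74 member results kept their side of the threshold; the exception was Rsph3a without Foxn3KO replicate 2 (0.39, edgeR adjusted p = 0.0606). The number of members called higher was 5 to 6 with a library left out, where a lone library is assumed to vary like the others, and 6 in the other alternatives. The median of the members ranged from 1.09 to 1.15 with a library left out. The count of all called genes, 3795, was 2425 with DESeq2 (the cause was not tested) and 2323 to 5067 with a library left out. Calls that were higher made up 55.9% of it, 48.2% with total count scaling (1916 higher, 2060 lower) and 63.5% with DESeq2. Replicate differences had a correlation of -0.00825 between the groups over 17300 genes. Wild-type replicates differed in sex-linked transcripts and Foxn3KO replicates did not, so this cannot settle whether the replicate numbers pair the samples. With the replicate block 4222 genes and 6 members were called, with a member median of 1.12 and Foxn3 at 0.54. For the other named genes and lists, alternatives added after seeing the data reversed 2 uncalled values, Cyb5d1 (-0.01 without Foxn3KO replicate 1, range -0.01 to 0.21 over the libraries left out) and Foxn4 (0.02 without wild-type replicate 2, range -0.06 to 0.02); the other named genes kept their direction and their side of the threshold. Genes called higher in the primary cilium core list numbered 14, 11 without Foxn3KO replicate 1 and 13 with DESeq2. With at least 10 counts in every library, which tests fewer genes, 10 central pair genes in place of 11 and 8 ruler and nexin-dynein genes in place of 9 were called. The lowest count of a member was 71, for Nme5 in wild-type replicate 2.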
